A study of Mus musculus with 16 samples.

Results

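The genes described here encode the nuclear subunits of the last 3 complexes of oxidative phosphorylation in the mouse. Members were taken by symbol: protein-coding genes of the GENCODE M21 annotation whose symbol starts with Uqcr, with Cox4 to Cox8 or with Atp5, together with Cyc1. Pseudogenes were left out. The rule took 45 of the 55401 genes in the deposited tables, of which 21897 are protein-coding. Complex III has 9 members, complex IV 18 and complex V 18. A filter on low counts left 39 members for testing, 9 of complex III, 13 of complex IV and 17 of complex V. The other 6 were Cox4i2, Cox6a2, Cox7b2, Cox8b, Cox8c and a second Atp5o identifier (ENSMUSG00000116933), which had no count in any library.

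Poly(A) RNA was sequenced from cultured CD8+ T cells, 16 libraries in 4 groups of 4. The mice were OT-I, in which a T cell receptor transgene recognises a peptide of ovalbumin. Their splenocytes were activated with that peptide and then kept in IL-2 to give effector cells (TE) or in IL-15 to give memory cells (TM). Wild-type (WT) cells were compared with TPdh-/- cells, in which Cre under the CD4 promoter deleted a floxed part of Pdha1, the X-linked gene of the E1 alpha subunit of pyruvate dehydrogenase. The CD4 promoter is active in thymocytes, so the deletion reaches CD8+ as well as CD4+ cells. Adult mice of both sexes entered the study, and the sex and age behind a library were not labelled. Libraries 1 to 4 were WT TE and 9 to 12 WT TM, and libraries 5 to 8 were TPdh-/- TE and 13 to 16 TPdh-/- TM. The study describes its RNA as taken from several mice per condition, but the labels do not tie the libraries to mice, and p-values measure only the spread between these libraries, which may be technical.

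Pdha1 summed over the whole gene had 68.04 to 69.47 TPM in WT TE and 69.47 to 73.58 TPM in TPdh-/- TE, and 83.36 to 107.87 TPM in WT TM and 73.31 to 76.81 TPM in TPdh-/- TM. It was thus lower in the TPdh-/- libraries in TM and not in TE. A gene total does not resolve the deleted part, so these levels do not check the genotype labels, and the groups are named as labelled.

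Library totals ran from 53007257 to 73507566 counts, and 15277 genes were tested. Members took between 0.457% and 0.671% of a library's counts. Library 12 (WT TM) stood apart from libraries 9 to 11, with a chi-square per degree of freedom of 53.7 to 70.3 against them, where they gave 9.13 to 15.9 among themselves. Library 5 (TPdh-/- TE) gave 23.4 to 61.3 against libraries 6 to 8. The mean fragment length was 297.3 bases in library 12 and between 323.0 and 326.8 bases in libraries 14 to 16, and 303.9 to 315.5 bases in all others. The CD8 T cell list (Cd3e, Cd3d, Cd8a, Cd8b1 and Trac) was detected in each library, with summed levels from 1620 to 3200 TPM (transcript abundance scaled for gene length and library total).

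Complex III passes electrons from ubiquinol to cytochrome c, complex IV passes them from cytochrome c to oxygen, and both pump protons out of the mitochondrial matrix. Complex V, the ATP synthase, lets the protons return and makes ATP. Each complex is built from subunits of nuclear genes together with a few encoded in mitochondrial DNA. Several complex IV subunits exist as pairs of isoforms, one found in most tissues and one that prevails in heart and skeletal muscle, lung or testis. In CD8+ T cells oxidative phosphorylation is known as a main energy source of memory cells, whereas effector cells rely more on glycolysis.

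Members differed widely in level. In complex III Uqcrh had the highest mean, 1156 ± 31.4 TPM (mean ± SD, n = 4) in WT TE, and Uqcrq the lowest, 36.7 ± 2.69 TPM. In complex IV the range went from 1252 ± 35.03 TPM for Cox6b1 down to 4.82 ± 0.531 TPM for the isoform Cox6b2, and in complex V from 1215 ± 18.2 TPM for Atp5k and 1198 ± 35.03 TPM for Atp5mpl to 4.16 ± 0.507 TPM for Atp5s, all in WT TE. Summed over complex IV the level was 5375.9 to 5627.7 TPM in WT TE, 5219.5 to 5499.5 in TPdh-/- TE, 3742.4 to 4593.9 in WT TM and 3862.8 to 4628.8 in TPdh-/- TM. Complex V gave 8882.8 to 9227.5, 8191.8 to 9081.6, 6160.8 to 7675.5 and 6479.7 to 7556.6 TPM in the same order. The TM libraries thus lay below the TE libraries in both sums. The sum over complex III overlapped between cultures, at 2229.1 to 2503.5 TPM in TE and 1984.1 to 2462.5 TPM in TM, and Uqcrh, its most abundant member, was not called lower in TM in either genotype.

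**Figure D1:**
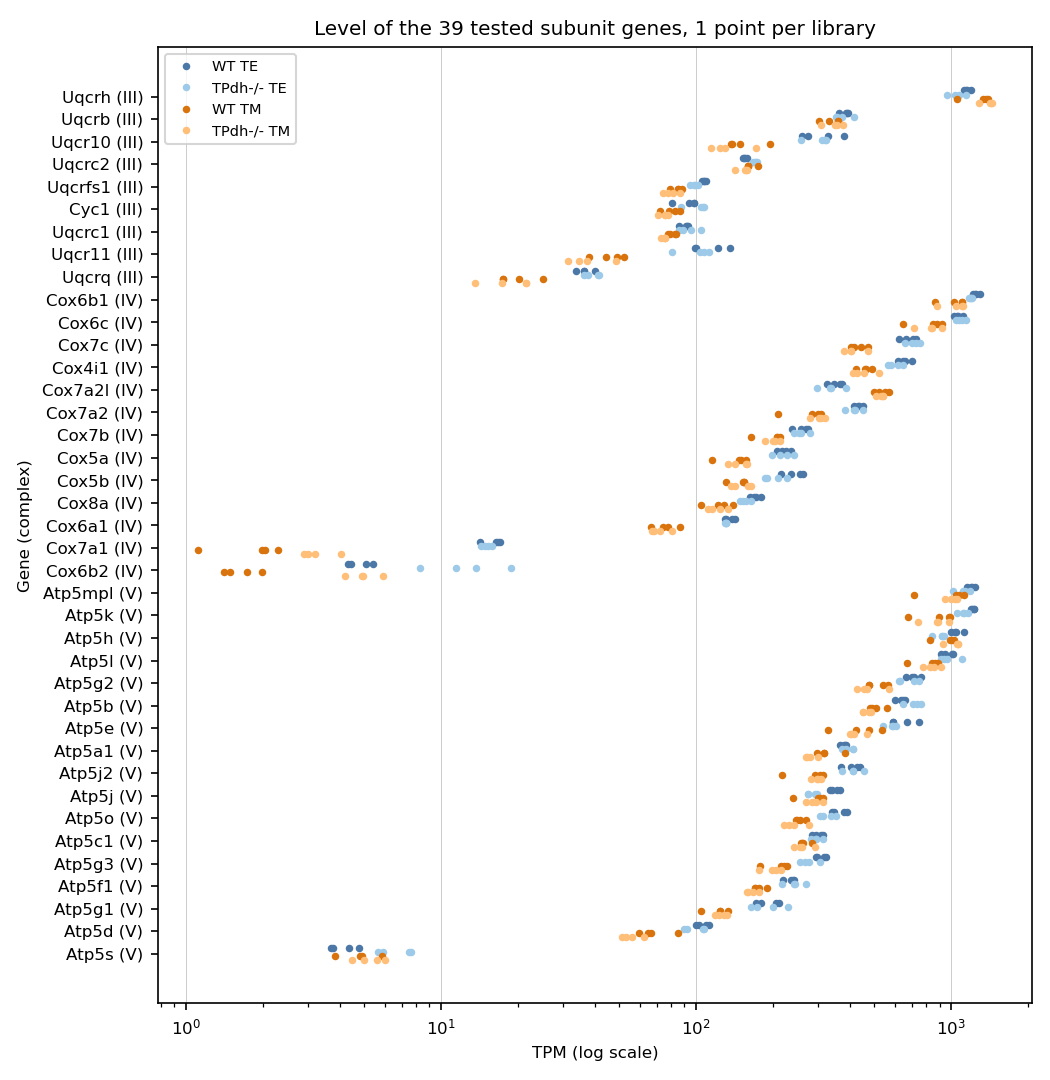
TPM (x axis, log scale) of each tested member (y axis, with its complex), ordered by median level within a complex, 1 point per library coloured by group. Uqcrh reaches the highest value, 1449 TPM, while Cox7a1, Cox6b2 and Atp5s lie at 18.9 TPM or less in each library.

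The first comparison asked how memory cultures differ from effector cultures. In WT cells 35 of the 39 members were lower in TM, and Cox7a2l alone was higher. The median member was lower by 0.62 on the log2 scale (median log2 difference -0.619). Of all genes tested, 34.3% were called lower and 34.3% higher, with a median of 0.00757. In TPdh-/- cells 33 members were lower and 2 were higher, Cox7a2l and Uqcrh, with a median of -0.465, where 34.7% of all genes were lower and 33% higher (67.7% called). Fewer cells of a type and less RNA per cell cannot be told apart in these bulk samples. Summed markers also moved between cultures. From WT TE to WT TM the CD8 T cell list of 5 genes went from 2130 to 2320 TPM up to 2990 to 3200 TPM, and the 3 gamma-delta T cell genes from 30.1 to 35.4 up to 44.5 to 51.0 TPM. The CD4 T cell list of 3 genes went from 10.2 to 16.7 TPM down to 2.78 to 4.22 TPM, and the dendritic cell list of 4 genes from 2.61 to 3.32 down to 0.40 to 0.46 TPM. The NK cell list of 7 genes went from 40.1 to 53.2 TPM in WT TE down to 24.4 to 36.5 TPM in WT TM. In TPdh-/- the NK list went from 25.1 to 37.5 TPM in TE up to 49.3 to 65.7 TPM in TM. The macrophage and monocyte list of 6 genes went from 8.29 to 10.5 down to 4.94 to 6.22 TPM in WT. In TPdh-/- that list was at 13.7 to 21.9 TPM in TE and 21.6 to 35.5 TPM in TM. The part of these in the culture differences was not tested.

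By complex, 7 of 9 members of complex III, 12 of 13 of complex IV and 16 of 17 of complex V fell in WT. In TPdh-/- the counts were 7 of 9, 12 of 13 and 14 of 17. The 4 WT TM libraries lay below all 4 WT TE libraries for 36 members and above them for 1, where 63.9% of all genes had groups that did not overlap in either direction. In TPdh-/- it was 33 below and 2 above, against 59.8% of all genes. A gene was called at an adjusted p below 0.05 in edgeR's quasi-likelihood test, adjusted by Benjamini-Hochberg over all genes, and differences between groups are given on that fit's log2 scale. Values in single libraries are CPM (counts scaled by library total and TMM factor), listed in the order of the library numbers.

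**Figure D2:**
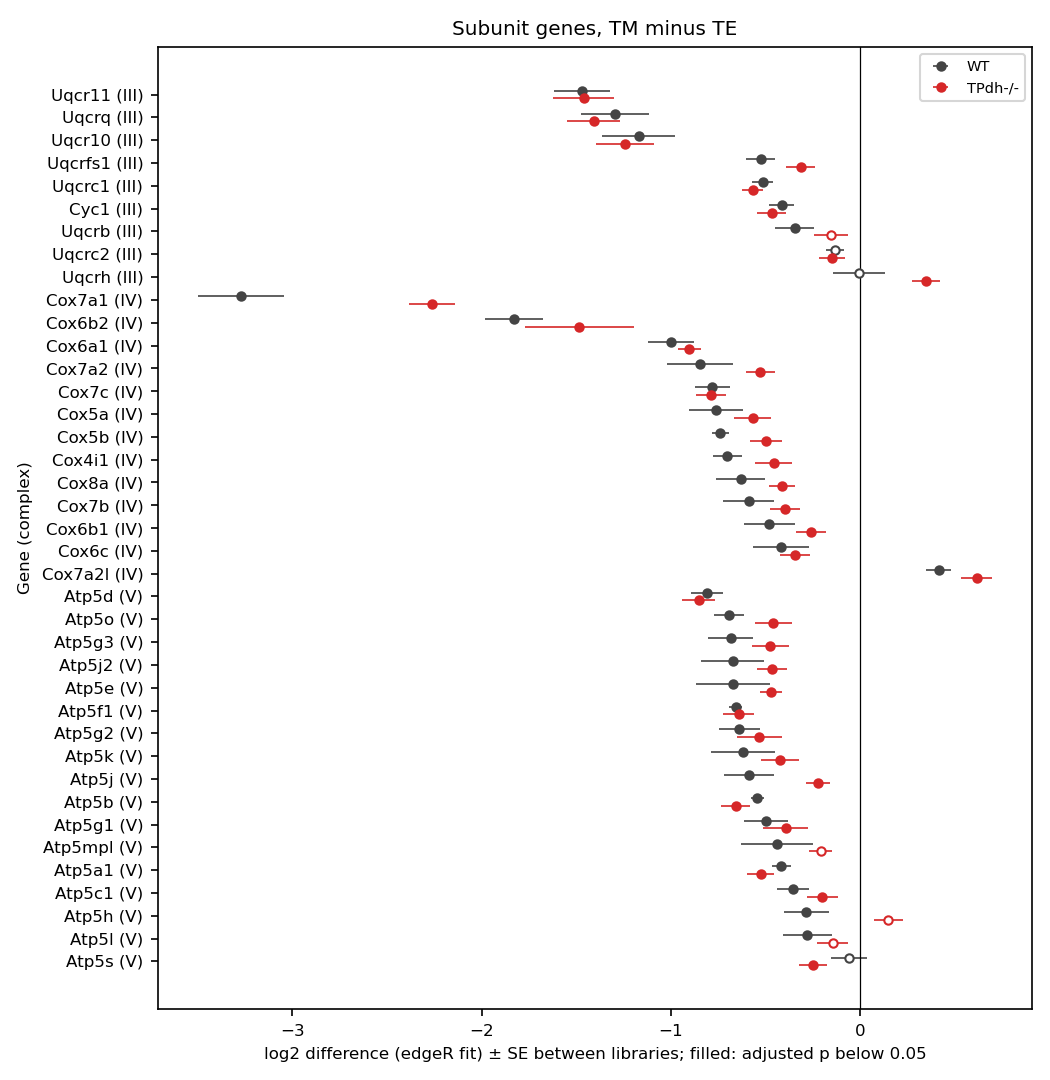
Log2 difference TM minus TE (x axis, ± SE of the difference between group means) of each tested member (y axis), in WT (grey) and TPdh-/- (red), filled where the adjusted p was below 0.05. All but a few members lie left of 0, Cox7a1 and Cox6b2 farthest, and Cox7a2l lies right of 0 in both genotypes.

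The second comparison asked what the loss of Pdha1 changed in effector cultures. In TE, 12 members were lower and 2 higher in TPdh-/- than in WT, and the median member differed by -0.206. Of all genes tested, 14.3% were lower and 17.3% higher. The 12 were Uqcrfs1 and Uqcrh of complex III, Cox4i1, Cox5b, Cox6b1, Cox7a2l and Cox8a of complex IV, and Atp5d, Atp5g3, Atp5h, Atp5j and Atp5o of complex V. Cox6b2 and Atp5s were the 2 that rose. Differences of the 12 were small, from 0.20 lower for Cox7a2l to 0.43 lower for Atp5j on the log2 scale.

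The number of members lower in TPdh-/- TE depended on how libraries were scaled. With library totals in place of TMM factors 5 members were lower, and with TPM in limma 3 were lower and 3 higher. The members' median was then -0.126 and -0.05, where the median of all genes was 0.0798 and 0.0921. Without libraries 5 and 12 the count was 22 lower and 2 higher. The TPdh-/- TE libraries lay below all WT TE libraries for 18 members in CPM and for 5 in TPM. They lay above them for 2 in CPM and 3 in TPM. In CPM 33.1% of all genes had groups that did not overlap in either direction, and that share was not computed in TPM. Summed markers moved beside this comparison: the CD8 T cell list was at 2130 to 2320 TPM in WT TE and 1620 to 1790 TPM in TPdh-/- TE, and the macrophage and monocyte list of 6 genes at 8.29 to 10.5 and 13.7 to 21.9 TPM. The 3 gamma-delta T cell genes found summed to 30.1 to 35.4 TPM in WT TE and 49.3 to 52.6 TPM in TPdh-/- TE. The NK cell list of 7 genes was at 40.1 to 53.2 and 25.1 to 37.5 TPM, and the dendritic cell list of 4, with Siglech at 0, at 2.61 to 3.32 and 0.88 to 1.49 TPM. Their part in the result was not tested.

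In memory cultures fewer members differed by genotype. In TM 2 members were higher in TPdh-/-, Cox6b2 and Cox7a1, and 3 lower, Uqcrc1, Atp5a1 and Atp5d, of 39, where 11% of all genes were higher and 7.27% lower. The median member differed by -0.056, with 27 of 39 below 0. This small median depended on library 12: without it the TM median was -0.119, with 36 below 0. The TE median was then -0.215. Atp5a1 lay outside the rule for naming genes and was named after its values were seen. Without library 12 the calls were Cox6b2 (higher) and Atp5mpl (lower), and with an effective length term as well Cox6b2 was the 1 call left. The NK cell list of 7 genes summed to 24.4 to 36.5 TPM in WT TM and 49.3 to 65.7 TPM in TPdh-/- TM, and the macrophage and monocyte list to 4.94 to 6.22 and 21.6 to 35.5 TPM. The CD8 T cell list was at 2990 to 3200 TPM in WT TM and 2150 to 2410 TPM in TPdh-/- TM, and the gamma-delta genes at 44.5 to 51.0 and 78.7 to 85.9 TPM. At lower levels, the CD4 T cell list was at 2.78 to 4.22 and 5.36 to 9.38 TPM. Dendritic cell genes were at 0.40 to 0.46 and 0.60 to 1.08 TPM. Granulocyte and mast cell genes were at 0.95 to 1.38 and 1.98 to 2.75 TPM. Fragment length also differed, at 297.3 to 307.3 bases in WT TM and 308.8 to 326.8 bases in TPdh-/- TM. The part of these in the calls was not tested.

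**Figure D3:**
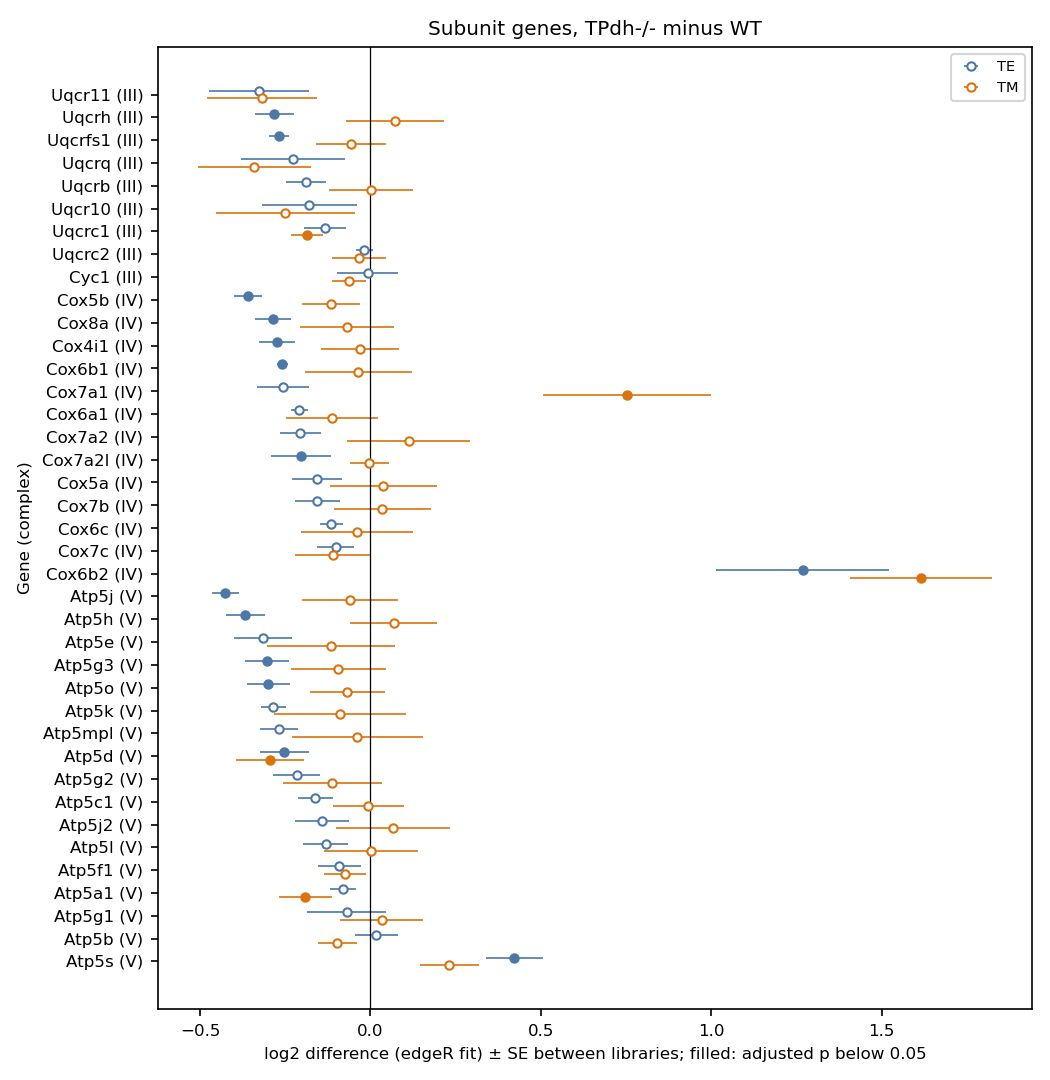
Log2 difference TPdh-/- minus WT (x axis, ± SE of the difference between group means) of each tested member (y axis), in TE (blue) and TM (orange), filled where the adjusted p was below 0.05. Most TE points lie between -0.5 and 0, most TM points lie close to 0, and Cox6b2 lies above 1 in both cultures.

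The interaction, the genotype difference in TM minus that in TE, was called for 2 of the 39 members, Cox7a1 and Atp5h, both positive, where 8.05% of all genes were positive and 7.51% negative. For the other 37 members a difference between cultures in the genotype effect was not shown.

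In complex III the redox subunits fell in memory cultures. Cyc1, the cytochrome c1 that hands electrons to cytochrome c, had 68.5, 70.7, 60.9 and 69.6 CPM in WT TE and 73.4, 68.6, 57.7 and 68.4 CPM in TPdh-/- TE. Cyc1 in TM had 53.1, 52.4, 50.8 and 46.2 CPM in WT TM and 47.4, 47.9, 50.3 and 48.3 CPM in TPdh-/- TM. In CPM the TM libraries lay below the TE libraries in both genotypes, while the genotypes overlapped in either culture. In TPM the WT cultures overlapped. Cyc1 fell in TM by 0.41 in WT (SE 0.067, edgeR adjusted p = 4.34e-05) and by 0.47 in TPdh-/- (SE 0.076, edgeR adjusted p = 1.21e-05).

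Uqcrfs1 encodes the Rieske iron-sulfur protein, which takes the first electron from ubiquinol. Uqcrfs1 in TE had 112, 108, 106 and 107 CPM in WT TE and 93.9, 88.9, 90.7 and 86.7 CPM in TPdh-/- TE. Uqcrfs1 in TM had 77.97, 78.97, 80.04 and 64.4 CPM in WT TM and 63.3, 70.7, 79.1 and 76.7 CPM in TPdh-/- TM. Within TE the TPdh-/- libraries lay below the WT libraries, and within TM library 12 was the lowest WT value and the genotypes overlapped. Uqcrfs1 fell in TPdh-/- TE by 0.27 (SE 0.030, edgeR adjusted p = 0.00821), and in TM against TE by 0.52 in WT and 0.31 in TPdh-/-.

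Uqcrc1 and Uqcrc2 encode the core proteins on the matrix side. Uqcrc1 had 105, 119, 113 and 116 CPM in WT TE and 109.5, 109, 99.2 and 95.8 CPM in TPdh-/- TE. Uqcrc1 in TM had 82.1, 73.2, 80 and 82.7 CPM in WT TM and 68.3, 67.97, 73.1 and 69.9 CPM in TPdh-/- TM. The TM libraries lay below the TE libraries, and within TM the highest TPdh-/- value, 73.1 CPM, lay just below the lowest WT value, 73.2 CPM. Uqcrc1 fell in TM by 0.51 in WT, a difference that ran from -0.555 to -0.162 over the alternatives. In TPdh-/- TM it was lower than in WT TM by 0.19 (SE 0.047, edgeR adjusted p = 0.0295). That genotype call was lost under 10 of the alternatives, among them an effective length term (-0.08, adjusted p = 0.431) and leaving out library 12 (-0.166, adjusted p = 0.0735).

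Uqcrh, the hinge protein near cytochrome c1, was not called lower in TM. Uqcrh in TE had 292, 272, 276 and 265 CPM in WT TE and 208, 229, 245 and 226 CPM in TPdh-/- TE. Uqcrh in TM had 297, 283, 313 and 208 CPM in WT TM and 258, 294, 303 and 304 CPM in TPdh-/- TM. Library 12 was the lowest TM library, and the other WT TM libraries spanned the upper WT TE values and above. In WT the difference between cultures was -0.0048 (edgeR adjusted p = 0.968), and in TPdh-/- Uqcrh rose in TM by 0.35 (SE 0.075, edgeR adjusted p = 0.0037). It was lower in TPdh-/- TE than in WT TE by 0.28 (SE 0.057, edgeR adjusted p = 0.0327), a call lost under 8 alternatives, among them library totals and TPM. The interaction of 0.36 did not pass (edgeR adjusted p = 0.0863).

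The 3 small subunits Uqcr10, Uqcr11 and Uqcrq had the largest differences of complex III. Uqcr11 had 15.4, 18.3, 20.7 and 14.98 CPM in WT TE and 14.2, 14.5, 15.3 and 11.2 CPM in TPdh-/- TE. Uqcr11 in TM had 6.21, 5.26, 7.43 and 6.16 CPM in WT TM and 4.49, 4.91, 6.37 and 4.29 CPM in TPdh-/- TM. No TM library reached the lowest TE library, and the genotypes overlapped in both cultures. Uqcr11 fell by 1.47 in WT TM (SE 0.15, edgeR adjusted p = 6.78e-08) and by 1.46 in TPdh-/- TM (SE 0.16, edgeR adjusted p = 9.54e-08).

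Uqcr10 had 38.6, 47.04, 55.3 and 39.6 CPM in WT TE and 42.5, 40.3, 42.2 and 34.4 CPM in TPdh-/- TE. Uqcr10 in TM had 19.6, 17.7, 26.5 and 16.4 CPM in WT TM and 15.2, 13.97, 21.6 and 16.7 CPM in TPdh-/- TM. The cultures were again apart, and Uqcr10 fell by 1.17 in WT and 1.24 in TPdh-/- (edgeR adjusted p = 2.97e-06 and 1.75e-06). Uqcrq, a subunit next to cytochrome b, had 9.60, 11.9, 13.3 and 9.91 CPM in WT TE and 9.74, 9.50, 11.2 and 7.80 CPM in TPdh-/- TE. Uqcrq in TM had 4.96, 3.37, 4.71 and 5.17 CPM in WT TM and 3.16, 3.47, 4.27 and 3.48 CPM in TPdh-/- TM. It fell by 1.29 in WT and 1.41 in TPdh-/- (edgeR adjusted p = 4.81e-07 and 2.29e-07), and none of the 3 was called between genotypes. The remaining members of complex III moved less: Uqcrb fell by 0.35 in WT TM, Uqcrc2 fell by 0.15 in TPdh-/- TM, and neither was called in the other genotype.

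In complex IV the ubiquitous subunits fell together in memory cultures. Cox4i1, the common isoform of the largest nuclear subunit, had 263, 276, 295 and 269.8 CPM in WT TE and 220.2, 232, 244 and 216 CPM in TPdh-/- TE. Cox4i1 in TM had 175, 156, 191 and 157 CPM in WT TM and 144, 157, 192 and 172 CPM in TPdh-/- TM. The TE genotypes did not overlap in CPM but did in TPM, and the TM genotypes overlapped. Cox4i1 fell in TM by 0.70 in WT (SE 0.079, edgeR adjusted p = 8.33e-07) and by 0.46 in TPdh-/- (SE 0.098, edgeR adjusted p = 0.000101), and in TPdh-/- TE against WT TE by 0.27 (SE 0.054, edgeR adjusted p = 0.017), a call lost with library totals and with TPM. Of its exon bases 9.94% are shared with Emc8 on the opposite strand, and the kit did not keep the strand.

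Cox5b, a zinc-binding subunit on the matrix side, had the largest called decrease of complex IV between genotypes. Cox5b in TE had 46.8, 46.8, 42.6 and 45.4 CPM in WT TE and 36.6, 33.7, 35.7 and 35.6 CPM in TPdh-/- TE. Cox5b in TM had 27.6, 26.3, 28.7 and 26.3 CPM in WT TM and 22.1, 23.5, 28.1 and 26.7 CPM in TPdh-/- TM. Within TE all TPdh-/- values lay below all WT values in CPM but not in TPM, and within TM the genotypes overlapped. Cox5b fell in TPdh-/- TE by 0.36 (SE 0.041, edgeR adjusted p = 0.000553), and in TM against TE by 0.74 in WT and 0.50 in TPdh-/-. This genotype call kept its direction and stayed below 0.05 under library totals and TPM.

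Cox5a, its partner on the matrix side, had 72.7, 74.2, 68.3 and 76.3 CPM in WT TE and 71.8, 62.6, 58.8 and 68.3 CPM in TPdh-/- TE. Cox5a in TM had 48.04, 44.5, 47.4 and 31.98 CPM in WT TM and 38.8, 42.1, 47.4 and 48.2 CPM in TPdh-/- TM. The value of library 12 was the lowest of the 16, and the genotypes overlapped in each culture. Cox5a fell in TM by 0.76 in WT and 0.57 in TPdh-/- (edgeR adjusted p = 5.80e-06 and 0.00014), and in TE the genotypes differed by -0.16 (edgeR adjusted p = 0.277).

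Cox8a, the common isoform of the smallest subunit, had 43.9, 40.97, 39.2 and 40.1 CPM in WT TE and 33.9, 31.7, 32.9 and 36.1 CPM in TPdh-/- TE. Cox8a in TM had 28.01, 25.95, 31.4 and 20.7 CPM in WT TM and 25.2, 23.1, 27.99 and 24.8 CPM in TPdh-/- TM. Cox8a fell in TPdh-/- TE by 0.29 (SE 0.053, edgeR adjusted p = 0.027), with no overlap between the genotypes in TE in CPM but overlap in TPM, and in TM against TE by 0.63 in WT and 0.41 in TPdh-/-. The TE call of Cox8a was lost under 4 alternatives: without library 1, without library 6, with library totals and with TPM. Cox6a1, the common isoform of subunit VIa, had 34.3, 36.6, 34.1 and 35.5 CPM in WT TE and 30.6, 30.1, 30.4 and 30.6 CPM in TPdh-/- TE. Cox6a1 in TM had 18.2, 16.9, 21.1 and 14.1 CPM in WT TM and 15.7, 15.1, 18.3 and 15.97 CPM in TPdh-/- TM. After the isoforms Cox7a1 and Cox6b2 it had the largest decrease of complex IV in TM, 1.00 in WT and 0.90 in TPdh-/- (edgeR adjusted p = 2.93e-08 and 1.14e-07). In TE its WT libraries lay above the TPdh-/- libraries in CPM but not in TPM, and the difference of -0.21 was not called (edgeR adjusted p = 0.0791). The members Cox6c, Cox7b and Cox7c fell in TM in both genotypes, by 0.42 to 0.78 in WT, and were not called between genotypes.

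Cox7a2l was the exception within complex IV. Its product, also called Cox7rp or Scaf1, resembles subunit VIIa and joins complexes III and IV in supercomplexes. Cox7a2l had 274, 255, 275 and 238 CPM in WT TE and 200.4, 221, 257 and 227 CPM in TPdh-/- TE. Cox7a2l in TM had 331, 340.2, 379 and 341 CPM in WT TM and 331, 334, 356 and 367 CPM in TPdh-/- TM. Each TM library lay above each TE library, while the genotypes overlapped in both cultures. Cox7a2l rose in TM by 0.42 in WT (SE 0.065, edgeR adjusted p = 5.58e-05) and by 0.62 in TPdh-/- (SE 0.082, edgeR adjusted p = 7.34e-07). The decrease in TPdh-/- TE of 0.20 (SE 0.088, edgeR adjusted p = 0.0375) was lost under 9 alternatives, among them leaving out libraries 5 and 12 (-0.151, adjusted p = 0.103).

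The tissue isoforms of complex IV were low in these T cells, and 2 of them, Cox7a1 and Cox6b2, had larger differences between cultures than any common subunit of complex IV. Cox7a1 prevails in heart and skeletal muscle, where it takes the place of Cox7a2. Cox7a1 in TE had 1.92, 1.54, 1.82 and 1.82 CPM in WT TE and 1.49, 1.40, 1.46 and 1.59 CPM in TPdh-/- TE. Cox7a1 in TM had 0.203, 0.222, 0.205 and 0.1 CPM in WT TM and 0.275, 0.267, 0.302 and 0.39 CPM in TPdh-/- TM. These are few molecules, 87 to 123 counts per TE library and 6 to 22 counts per TM library, and library 12 had the lowest value. In TM every TPdh-/- library lay above every WT library, and TE lay above TM in both genotypes.

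Cox7a1 fell in TM by 3.27 on the log2 scale in WT (SE 0.23, edgeR adjusted p = 3.32e-10) and by 2.26 in TPdh-/- (SE 0.12, edgeR adjusted p = 1.46e-08), the largest differences among the members. It was higher in TPdh-/- TM than in WT TM by 0.75 (SE 0.25, edgeR adjusted p = 0.0336), while in TE the difference was -0.26 (edgeR adjusted p = 0.249). The interaction was 1.01 (SE 0.26, edgeR adjusted p = 0.0209). The call in TM was lost under 8 alternatives, among them DESeq2 (adjusted p = 0.062) and leaving out library 12 (0.553, adjusted p = 0.182). Without that library the interaction was 0.819 (adjusted p = 0.0433), and without library 16 its call was lost.

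Its partner Cox7a2 was far more abundant and fell less. Cox7a2 had 155, 145, 140.0 and 146 CPM in WT TE and 138, 126, 116 and 128 CPM in TPdh-/- TE. Cox7a2 in TM had 90.6, 83.3, 95.9 and 56.4 CPM in WT TM and 78.95, 88.9, 93.2 and 91.5 CPM in TPdh-/- TM, a decrease in TM of 0.84 in WT and 0.53 in TPdh-/-. Cox7a1 made up 3.18% to 3.81% of the summed TPM of this pair in the TE libraries, 0.529% to 0.804% in WT TM and 0.93% to 1.32% in TPdh-/- TM. The muscle list of 6 genes summed to 1.29 to 2.06 TPM in WT TE and 1.86 to 2.99 TPM in TPdh-/- TE. In TM it summed to 2.46 to 3.70 TPM in WT and 2.47 to 3.52 TPM in TPdh-/-. Myh7 and Mb, genes of heart and slow muscle, were at 0 in each library, and Myh6 had counts in TPdh-/- TE alone. Acta1, Ckm and Tnnt3 had counts in each group.

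Cox6b2, known from testis, stood out between genotypes. Cox6b2 in TE had 1.19, 0.909, 1.07 and 0.935 CPM in WT TE and 1.61, 2.13, 2.605 and 3.57 CPM in TPdh-/- TE. Cox6b2 in TM had 0.281, 0.222, 0.359 and 0.284 CPM in WT TM and 0.688, 0.8, 0.845 and 1.21 CPM in TPdh-/- TM. In both cultures each TPdh-/- library lay above each WT library, and the spread was widest in TPdh-/- TE. Cox6b2 rose in TPdh-/- by 1.27 in TE (SE 0.25, edgeR adjusted p = 0.000341) and by 1.62 in TM (SE 0.21, edgeR adjusted p = 0.000355). No alternative ended either call, and the highest adjusted p over them was 0.00205 in TE and 0.0019 in TM. The interaction of 0.35 did not pass (edgeR adjusted p = 0.546). Cox6b2 fell in TM by 1.83 in WT and 1.48 in TPdh-/-. The libraries held 12 to 199 counts of Cox6b2.

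Cox6b1, the common form of this subunit, which faces the intermembrane space, had 244, 244, 239.8 and 249 CPM in WT TE and 207, 204, 200.5 and 206 CPM in TPdh-/- TE. Cox6b1 in TM had 193, 178, 198 and 132 CPM in WT TM and 145, 172, 184 and 182 CPM in TPdh-/- TM. Library 12 was the lowest of the 16. Cox6b1 fell in TPdh-/- TE by 0.26 (SE 0.015, edgeR adjusted p = 0.0499), just inside the threshold, and 14 alternatives ended this call. Cox6b2 made up 0.341% to 0.437% of the summed TPM of the pair in WT TE, 0.68% to 1.59% in TPdh-/- TE, 0.135% to 0.228% in WT TM and 0.439% to 0.532% in TPdh-/- TM. The share of the testis form was thus larger in TPdh-/- than in WT within each culture, without overlap.

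**Figure D4:**
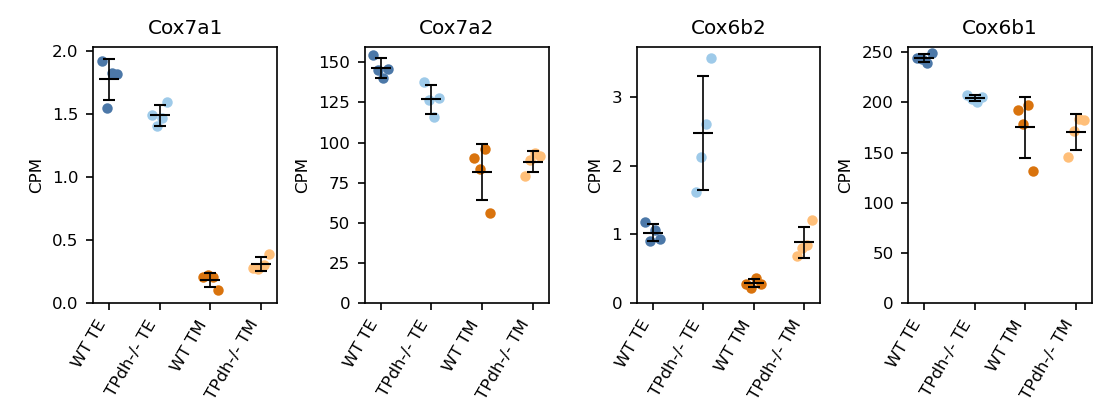
CPM (y axes, linear and starting at 0) of 2 isoform pairs of complex IV in each library, by group, with the mean and SD (n = 4) in black. Cox7a1 is at or below 0.39 CPM in TM and at 1.4 CPM or more in TE, and Cox6b2 is higher in TPdh-/- than in WT within each culture, while Cox7a2 and Cox6b1 are far above both.

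The other tissue isoforms were at or near 0 and were not tested. Cox6a2, the heart and muscle form of Cox6a1, had 1, 1, 1 and 0 counts in WT TE and 4, 11, 9 and 12 counts in TPdh-/- TE. In TM it had 1, 0, 0 and 0 counts in WT and 0, 2, 0 and 1 in TPdh-/-. The TPdh-/- TE libraries were thus the ones with more than 2 counts. Exons of Cox6a2 share 10.3% of their bases with Itgad on the other strand. Cox4i2, the lung form of Cox4i1, reached at most 6 counts, in library 5, and Cox8b at most 1 count. Cox7b2 and Cox8c had none in any library, which allows up to 3 counts per library (counting error only).

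Promoter sequences are shown for the 2 isoform pairs, since the less abundant member of each had the largest differences between cultures in complex IV, and for Cox6a1 and Atp5h, which hold sites of both factors most often tied to respiratory genes. Each is 200 bases before to 20 bases after the RefSeq start (GRCm38.p6), 5′ to 3′ on the gene's strand, with capitals for matches to the sites of NRF1 (GCGCA, any base, GCGC) or of ETS factors such as GABP (CCGGAAG), searched on both strands.
Cox7a1, chr7:30183971-30184190, plus strand: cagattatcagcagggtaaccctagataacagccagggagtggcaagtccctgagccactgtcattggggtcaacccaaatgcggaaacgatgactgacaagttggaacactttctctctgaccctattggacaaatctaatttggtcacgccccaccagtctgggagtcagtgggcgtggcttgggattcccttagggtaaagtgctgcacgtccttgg
Cox7a2, chr9:79759834-79760053, minus strand: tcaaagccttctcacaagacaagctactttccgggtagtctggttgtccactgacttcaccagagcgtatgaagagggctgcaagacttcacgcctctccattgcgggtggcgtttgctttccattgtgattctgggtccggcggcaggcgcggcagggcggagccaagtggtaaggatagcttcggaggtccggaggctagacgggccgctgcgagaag
Cox6b2, chr7:4753075-4753294, minus strand: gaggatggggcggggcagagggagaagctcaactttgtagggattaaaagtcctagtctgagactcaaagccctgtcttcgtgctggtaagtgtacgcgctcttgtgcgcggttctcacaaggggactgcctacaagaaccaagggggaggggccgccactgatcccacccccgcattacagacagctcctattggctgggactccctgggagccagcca
Cox6b1, chr7:30626095-30626314, minus strand: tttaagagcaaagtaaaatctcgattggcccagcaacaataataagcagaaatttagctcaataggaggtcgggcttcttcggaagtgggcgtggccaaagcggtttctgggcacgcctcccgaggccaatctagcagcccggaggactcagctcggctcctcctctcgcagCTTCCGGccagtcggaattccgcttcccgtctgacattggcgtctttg
Cox6a1, chr5:115348939-115349158, minus strand: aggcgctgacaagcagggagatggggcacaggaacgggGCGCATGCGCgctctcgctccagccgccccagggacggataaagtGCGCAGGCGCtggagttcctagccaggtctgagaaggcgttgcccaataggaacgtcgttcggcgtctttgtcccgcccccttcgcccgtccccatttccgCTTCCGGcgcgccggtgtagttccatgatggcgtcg
Atp5h, chr11:115419900-115420119, minus strand: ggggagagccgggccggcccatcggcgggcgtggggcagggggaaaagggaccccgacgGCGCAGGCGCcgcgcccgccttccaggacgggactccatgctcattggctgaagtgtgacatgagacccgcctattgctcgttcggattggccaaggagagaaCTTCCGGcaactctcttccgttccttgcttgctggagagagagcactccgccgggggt
Cox6b1 has 1 ETS match close to its start, Cox6a1 has 2 NRF1 matches and 1 ETS match, and Atp5h has 1 of each. The windows of Cox7a1, Cox7a2 and Cox6b2 hold neither motif.

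Over windows of 300 bases (250 before to 50 after the start), RefSeq promoters were found for 33 member symbols in 36 windows. Entries for 11 symbols were missing: Cyc1, Uqcrb, Uqcrc2, Uqcrq, Cox4i1, Cox4i2, Cox6a2, Cox6c, Cox8c, Atp5a1 and Atp5mpl. The NRF1 site was in 22.2% of the members' windows and in 4.6% of all 32851 windows. The ETS site was in 27.8% against 8.86%, and the YY1 site (AAGATGGCG) in 5.56% against 1.4%. At least 1 of the 3 was in 44.4% of the members' windows and 13.6% of all, and no matches of different motifs overlapped. These are letter matches, not bound sites.

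In complex V the subunits of the catalytic head fell in memory cultures. Atp5b, the catalytic beta subunit, had 974, 987, 911 and 991 CPM in WT TE and 1062, 999, 879.8 and 968 CPM in TPdh-/- TE. Atp5b in TM had 680.2, 637, 663 and 672 CPM in WT TM and 556, 638, 655 and 629.7 CPM in TPdh-/- TM. The TE genotypes overlapped, as did the TM genotypes, and the cultures stood apart. Atp5b fell in TM by 0.54 in WT (SE 0.035, edgeR adjusted p = 5.77e-07) and by 0.66 in TPdh-/- (SE 0.077, edgeR adjusted p = 6.53e-08). Atp5a1, the alpha subunit, had 739, 765, 772 and 772 CPM in WT TE and 759, 741, 683 and 699 CPM in TPdh-/- TE. Atp5a1 in TM had 561, 524, 584 and 617 CPM in WT TM and 448, 492, 546 and 516 CPM in TPdh-/- TM. It was lower in TPdh-/- TM than in WT TM by 0.19 (SE 0.078, edgeR adjusted p = 0.0423), with the value of library 15 inside the WT range, and in TM against TE by 0.41 in WT and 0.53 in TPdh-/-.

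Atp5d, the delta subunit of the central stalk, was the one member called lower in TPdh-/- in both cultures. Atp5d in TE had 60.7, 65.4, 67.2 and 60.4 CPM in WT TE and 50.2, 57.1, 57 and 48.5 CPM in TPdh-/- TE. Atp5d in TM had 35.8, 31.7, 36.3 and 41 CPM in WT TM and 28.2, 27.3, 33.3 and 29.2 CPM in TPdh-/- TM. The genotypes did not overlap in TE in CPM but did in TPM, and in TM library 15 of TPdh-/- lay within the WT range. Atp5d fell in TPdh-/- by 0.25 in TE (SE 0.072, edgeR adjusted p = 0.0231) and by 0.29 in TM (SE 0.099, edgeR adjusted p = 0.0175). Each call was lost under 5 alternatives, that in TM without library 12 (-0.227, adjusted p = 0.0606) and that in TE with library totals (-0.172, adjusted p = 0.114). Across cultures Atp5d had the largest decrease of complex V, 0.81 in WT and 0.85 in TPdh-/-.

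The peripheral stalk held 3 of the 5 members of complex V that were lower in TPdh-/- TE. Atp5h, subunit d of the stalk, had 353, 321, 308 and 317 CPM in WT TE and 261, 255, 233 and 259.6 CPM in TPdh-/- TE. Atp5h in TM had 284, 272, 299 and 212 CPM in WT TM and 244, 289, 291 and 295 CPM in TPdh-/- TM. In TE the TPdh-/- libraries lay below the WT libraries, and in TM the genotypes overlapped, with library 12 lowest in WT and library 13 lowest in TPdh-/-. Atp5h fell in TPdh-/- TE by 0.37 (SE 0.057, edgeR adjusted p = 0.00449), and the TM difference was 0.07 (edgeR adjusted p = 0.651). The interaction was 0.44 (SE 0.14, edgeR adjusted p = 0.0251) and was 0.35 without library 12 (adjusted p = 0.017). Without library 1 it was 0.406 and its call was lost (edgeR adjusted p = 0.0508). Between cultures Atp5h fell by 0.28 in WT TM and differed by 0.15 in TPdh-/- TM (edgeR adjusted p = 0.141).

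Atp5j, coupling factor 6 of the stalk, had 162, 151, 152 and 156 CPM in WT TE and 120.5, 119, 110.0 and 112 CPM in TPdh-/- TE. Atp5j in TM had 110.0, 105, 119 and 78.6 CPM in WT TM and 89.1, 98.9, 108 and 100.4 CPM in TPdh-/- TM. The TE genotypes were apart, and library 12 was the lowest of the 16. Atp5j had the largest decrease of all members in TPdh-/- TE, 0.43 (SE 0.040, edgeR adjusted p = 0.00196), which held under each alternative with a highest adjusted p of 0.00701. In TM it fell by 0.59 in WT and by 0.22 in TPdh-/- (edgeR adjusted p = 0.0402), the latter 0.02 with an effective length term and 0.031 in TPM. Exons of Atp5j share 397 bases, 12.7% of their length, with Gabpa on the other strand, which encodes the DNA-binding part of GABP and had a mean of 7727 counts against 7253 for Atp5j, so reads in the shared part could not be told apart.

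Atp5o, the oligomycin sensitivity-conferring protein on top of the stalk, had 176, 193, 176 and 196 CPM in WT TE and 163, 153, 140.4 and 146 CPM in TPdh-/- TE. Atp5o in TM had 117, 112, 128 and 102 CPM in WT TM and 95.03, 104, 126 and 113 CPM in TPdh-/- TM. Atp5o fell in TPdh-/- TE by 0.30 (SE 0.063, edgeR adjusted p = 0.00995), a call that TPM alone ended. In CPM the genotypes of Atp5o did not overlap in TE, but in TPM they did. In TM against TE it fell by 0.69 in WT and 0.46 in TPdh-/-. Atp5f1, subunit b of the same stalk, had 262, 261, 251 and 258 CPM in WT TE and 270.1, 242, 221 and 236 CPM in TPdh-/- TE. Atp5f1 in TM had 163, 155, 173 and 162 CPM in WT TM and 141, 151, 166 and 162 CPM in TPdh-/- TM. Its genotypes overlapped in both cultures, and it fell in TM by 0.66 in WT and 0.64 in TPdh-/- (edgeR adjusted p = 6.02e-08 and 9.12e-08). Exons of Atp5f1 share 8.21% of their bases with Wdr77 on the other strand.

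Subunit c, the ring that turns with the protons, is encoded by 3 genes whose mature proteins are identical. Atp5g2 gave 54.05% to 63.99% of their summed TPM, Atp5g3 21.93% to 26.97% and Atp5g1 13.85% to 19.66%, so the order of the 3 was the same in each library. Atp5g2 had 275, 307, 292 and 282 CPM in WT TE and 232, 260.4, 272 and 230.5 CPM in TPdh-/- TE. Atp5g2 in TM had 199, 171, 216 and 158 CPM in WT TM and 147, 163, 206 and 174 CPM in TPdh-/- TM. The WT TE libraries lay above the TPdh-/- TE libraries in CPM but not in TPM, and the difference was not called (-0.22, edgeR adjusted p = 0.114).

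Atp5g3 had 120.5, 128, 119 and 126 CPM in WT TE and 111, 95.6, 92.1 and 101 CPM in TPdh-/- TE. Atp5g3 in TM had 83.9, 80.2, 83.1 and 59.95 CPM in WT TM and 61.6, 71.4, 78.3 and 76.4 CPM in TPdh-/- TM. It was the one gene of the ring called between genotypes, lower in TPdh-/- TE by 0.30 (SE 0.064, edgeR adjusted p = 0.0213), a call lost under 3 alternatives: without library 7, with library totals and with TPM. Atp5g1 had 92.1, 105, 87.1 and 98.8 CPM in WT TE and 108, 94.6, 80.3 and 81.8 CPM in TPdh-/- TE. Atp5g1 in TM had 71.97, 66.1, 77.6 and 55.7 CPM in WT TM and 60.8, 69.8, 74.9 and 72.02 CPM in TPdh-/- TM, with overlap of the genotypes in both. In TM against TE the 3 genes fell by 0.50 (Atp5g1), 0.64 (Atp5g2) and 0.68 (Atp5g3) in WT and by 0.39, 0.53 and 0.47 in TPdh-/-, each with an edgeR adjusted p of 0.00299 or less.

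Atp5mpl, a small membrane subunit and the most abundant member of complex V by mean TPM over the 16 libraries, had 115, 106, 105 and 108 CPM in WT TE and 95.6, 89.8, 82.2 and 92.02 CPM in TPdh-/- TE. Atp5mpl in TM had 85.5, 85.1, 95.7 and 53.4 CPM in WT TM and 71.7, 79.98, 77.5 and 82.1 CPM in TPdh-/- TM. Library 12 lay far below the other WT TM libraries. Atp5mpl fell in WT TM by 0.44 (SE 0.19, edgeR adjusted p = 0.0033), and in TPdh-/- the difference was -0.21 (edgeR adjusted p = 0.129). Atp5s, also known as coupling factor B, went the other way between genotypes. RefSeq lists it as Dmac2l, so its place among the members rests on the symbol rule alone. Atp5s in TE had 3.28, 2.76, 2.97 and 2.67 CPM in WT TE and 3.79, 3.96, 3.62 and 4.30 CPM in TPdh-/- TE. Atp5s in TM had 2.93, 2.87, 2.99 and 2.44 CPM in WT TM and 3.40, 3.18, 3.58 and 3.02 CPM in TPdh-/- TM. It rose in TPdh-/- TE by 0.42 (SE 0.084, edgeR adjusted p = 0.00509), with no overlap of the genotypes in TE, and the TM difference was 0.23 (edgeR adjusted p = 0.14). The other members of complex V, Atp5c1, Atp5e, Atp5j2, Atp5k and Atp5l, fell in WT TM by 0.28 to 0.67 and were not called between genotypes.

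The partners of these subunits gave context. Of 36 nuclear subunits of complex I, 32 fell in WT TM (median -0.503) and 28 in TPdh-/- TM (median -0.452), and none was called higher. These are 88.9% lower in WT and 77.8% in TPdh-/-, where 34.3% and 34.7% of all genes were lower. Ndufc2 had the largest decrease, 1.01 in WT and 0.93 in TPdh-/-, followed by Ndufv3 in WT (0.98 lower) and Ndufc1 in TPdh-/- (0.90 lower). Of 4 subunits of complex II, Sdhb, Sdhc and Sdhd fell in both genotypes, Sdhb most at 0.69 in WT and 0.65 in TPdh-/-, and Sdha differed by 0.10 in WT. Those lower are 75% of the list, beside 34.3% and 34.7% of all genes. In TPdh-/- TE 12 complex I subunits were lower, with a median of -0.17, led by Ndufb7 (0.43 lower) and Ndufb11 (0.34 lower), and in TPdh-/- TM 2, Ndufb7 and Ndufv1. These are 33.3% lower in TE and 5.6% in TM, where 14.3% and 7.27% of all genes were lower. Of the 6 subunits of complexes III to V encoded in mitochondrial DNA, none was called in WT TM. In that comparison 68.6% of all genes were called in either direction. The median of the 6 subunits was -0.161, with 4 below 0, and the range was -0.25 for mt-Atp6 to 0.06 for mt-Co1. Whether they differed from the nuclear subunits was not tested. In TPdh-/- TM mt-Cytb and mt-Co1 rose by 0.27 and 0.21. They are 33.3% of the list, where 33% of all genes were called higher. In TPdh-/- TE mt-Co3, mt-Cytb and mt-Co2 fell by 0.48, 0.40 and 0.30 against WT TE, and in TPdh-/- TM mt-Co3 and mt-Co2 fell by 0.39 and 0.28 against WT TM, where mt-Co1 rose by 0.21. That is 50% of the list lower in TE, where 14.3% of all genes were lower. For TM it is 33.3% lower and 16.7% higher, where 7.27% and 11% of all genes were.

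Assembly factors were mixed. Of 28 tested factors of complex IV, 9 fell and 4 rose in TM in each genotype (median -0.105 in WT). These are 32.1% lower and 14.3% higher, where 34.3% of all genes were called in each direction in WT, and 34.7% lower and 33% higher in TPdh-/-. Among them was the largest difference, that of Higd1a, a gene known to respond to hypoxia, which fell by 1.44 in WT and 1.26 in TPdh-/-. In WT TM Cmc2 fell by 0.83, and in TPdh-/- TM Coa4 fell by 0.70. For complex III Uqcc2, which helps to make cytochrome b, fell by 1.09 and 1.07, while Ttc19, which clears fragments of the Rieske protein, rose by 0.54 and 0.35. For complex V Atpif1, the inhibitor of ATP hydrolysis by the synthase, fell by 1.33 and 1.18, and Tmem242 fell by 0.73 and 0.57. Cycs, the cytochrome c of somatic cells, fell by 0.38 in WT TM and 0.56 in TPdh-/- TM.

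**Figure D5:**
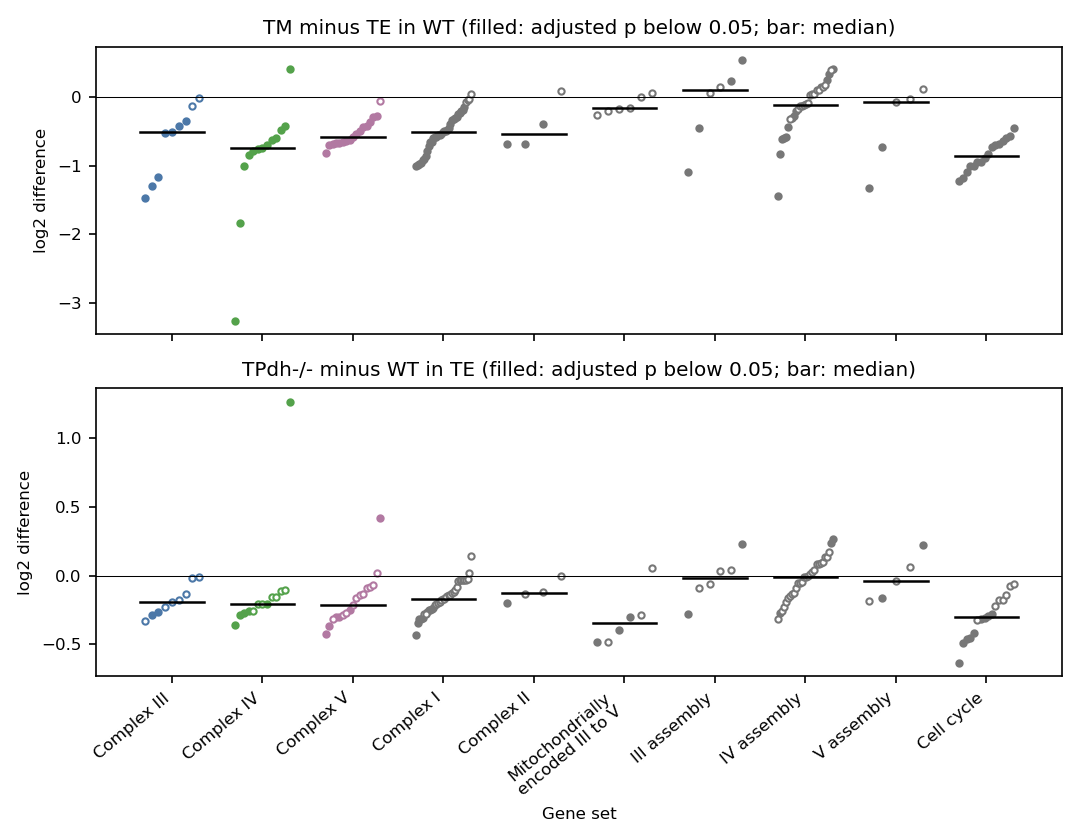
Log2 difference (y axes) of each tested gene in 10 gene sets (x axis), for TM minus TE in WT (upper panel) and TPdh-/- minus WT in TE (lower panel), with the median as a bar and filled points where the adjusted p was below 0.05. The nuclear subunit sets and the cell cycle set have medians of about -0.5 or lower in the upper panel, and the mitochondrially encoded and assembly sets have medians nearer to 0.

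Among 12 tested regulators of respiratory genes, Ppargc1b and Pprc1, coactivators of the PGC-1 family, rose in WT TM by 1.39 and 0.94. Ppargc1b was low, at 0.55 ± 0.0779 TPM in WT TE. Over the list 4 rose and 3 fell in WT TM and 6 rose and 3 fell in TPdh-/- TM. These are 33.3% higher and 25% lower in WT, where 34.3% of all genes were called in each direction, and 50% higher and 25% lower in TPdh-/-, where 33% and 34.7% of all genes were. In TPdh-/- TM Ppargc1b rose by 0.58 and Pprc1 differed by 0.18, with interactions of -0.81 (edgeR adjusted p = 0.0273) and -0.76 (edgeR adjusted p = 0.0301). Myc rose in TM by 1.04 in WT and 0.70 in TPdh-/-, and in TPdh-/- TE against WT TE by 0.47, beside Pprc1 at 0.66. In that genotype comparison 2 regulators rose and 2 fell, with a list median of -0.08. Each is 16.7% of the list, where 17.3% of all genes were higher and 14.3% lower. All 16 cell cycle genes fell in TM in both genotypes (medians -0.863 in WT and -0.768 in TPdh-/-), Ccnb1 by 1.22 in WT and Aurkb by 1.17 in WT and 1.17 in TPdh-/-. Against WT, 9 of them fell in TPdh-/- TE (Ccnb2 by 0.63) and 10 in TPdh-/- TM (Mki67 by 0.38). These are 56.2% and 62.5% of the list, where 14.3% and 7.27% of all genes were lower. The part of the regulators and of the cell cycle genes in the differences of the subunits was not tested.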

How the data were processed

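RNA of 16 libraries was analysed from per-gene tables. Per the labels, the libraries were made with a TruSeq version 2 kit from poly(A) RNA, which keeps no strand, aligned to mm10 (GRCm38) by STAR 2.7.6a, with RSEM 1.3.3 as the counter. DESeq2 is listed too, with no version. The annotation release was not given in the sources used here. The authors deposited expected counts (estimated by RSEM, not always whole), TPM computed from them, FPKM, which was not used, and the length and effective length of each gene. Names and positions were taken from GENCODE M21, which held 55141 (99.5%) of the 55401 identifiers. The 260 others held at most 0.0096% of a library's counts.

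Expected counts were rounded. After filterByExpr (minimum count 10, minimum total 15), edgeR 4.0.16 (R 4.3.3) fitted a quasi-likelihood model with TMM factors and 1 mean per group to all 16 libraries, and p-values were adjusted by Benjamini-Hochberg over 15277 genes, with a threshold of 0.05. The common biological coefficient of variation was 0.104. SE values are from log2 CPM (prior count 2) between libraries. The prior count narrows the spread where counts are low, so the SE of Cox7a1 and Cox6b2 is not on the scale of the fit's difference. Levels between genes are in TPM, single libraries in CPM. The fit was tested on simulated data. The members and gene lists were chosen with earlier results of these data known.

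Members were named by rule: up to 6 per complex called between genotypes or in the interaction, the 3 per complex with the largest called difference between cultures, isoforms with 10 counts, some redox and catalytic subunits, and the highest and lowest by TPM. Cox7a2, Atp5a1, Uqcrb, Uqcrc2 and others given only in a clause fall outside it and were added after their values were seen. From each list the 2 largest called differences were taken for the comparisons described, and others named were likewise added. Alternatives were DESeq2 1.42.0 size factors or test, limma-trend (3.58.1), no filter, an effective length term, 2 groups only, pseudogene counts added, a pseudocount of 0.1 in place of 1 on TPM, and libraries left out. Scaling by library totals, limma-trend on log2(TPM + 1) and an effective length term without library 12 were chosen after seeing the data. Python 3.11.15 with pandas 2.3.3, numpy 2.4.6, scipy 1.17.1 and matplotlib 3.10.9 made the tables and figures.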

Additional observations from a re-analysis of the deposited data

Results flagged for a closer look

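In groups of 4 libraries, the lowest or highest value was set against the others by Dixon's ratio, at its critical value for 4 samples. Of 124 such checks 4 passed, where chance gives about 5 in 100. Library 12 of WT TM gave 3 of them, being far below the other libraries of its group at 64.42 CPM for Uqcrfs1, 59.95 CPM for Atp5g3 and 0.1001 CPM for Cox7a1. Library 13 of TPdh-/- TM gave the other, at 244.3 CPM for Atp5h.

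The genotype difference itself differed between TM and TE, by the interaction term in edgeR, for the members Cox7a1 (1.01) and Atp5h (0.435). Among the other lists it did so for the transcription factors Gabpa (0.216) and Yy1 (0.178) and for the coactivators Ppargc1b (-0.809) and Pprc1 (-0.761). Gabpa shares exon bases with Atp5j on the other strand.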

How the results depend on the processing

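No paired analysis was possible because the labels number the libraries from 1 to 16 and no number is shared between groups. Between cultures 36 or 37 members were called in either direction in WT and 31 to 37 in TPdh-/- when single libraries were left out. In TM the 5 calls became 3 without a filter on low counts, 3 with only 2 groups in the fit, 2 without libraries 5 and 12, 3 with log2(TPM + 1) and 1 with the effective length term without library 12, and 2 to 6 when single libraries were left out. In TE the 14 calls became 24 without libraries 5 and 12, 21 (19 lower) with only 2 groups in the fit, 6 with log2(TPM + 1) and 7 with library totals, and 10 to 20 with single libraries left out, the highest without library 12. The 2 calls of the interaction became 5 with log2(TPM + 1) and 4 with the effective length term without library 12, and ran from 1 to 6 with single libraries left out.

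Scaling moved all genes: the median of all genes in TPdh-/- TE was 0.0921 with TPM and 0.0798 with library totals, and the share of all calls that were higher went from 54.8% to 84% and 74.9%. In TM against TE in WT the median was 0.117 with TPM, and the share went from 50% to 65.6% and, with library totals, 57%. For the interaction the median was -0.123 with TPM, and the share went from 51.7% to 18.6% and, with library totals, 33.8%. Of the 103 differences of tested members that were not called, 44 took the other sign under an alternative, and 1 of these, Uqcrc2 between genotypes in TE with TPM, was then called. Fits without a single library are not in this count, and their sign changes for named members are given below.

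The log2 difference of a named member changed sign as follows. With only 2 groups in the fit it was Cyc1 0.002 between genotypes in TE, Cox7a2l 0.0 between genotypes in TM. With log2(TPM + 1) it was Cyc1 0.131, Uqcrc1 0.048, Uqcrq 0.095 and Atp5f1 0.051 between genotypes in TE, Cox5b 0.02, Cox6b1 0.017, Atp5j 0.011 and Atp5mpl 0.052 between genotypes in TM, Uqcrh 0.149 and Atp5s 0.174 between cultures in WT, Atp5j 0.031 between cultures in TPdh-/-, Uqcr11 -0.104, Cox6a1 -0.021, Cox6b2 -0.05, Atp5f1 -0.148 and Atp5g2 -0.034 in the interaction. With library totals it was Cyc1 0.071 and Atp5g1 0.008 between genotypes in TE, Cox7a2l 0.009 between genotypes in TM, Uqcrh 0.079 and Atp5s 0.027 between cultures in WT, Uqcr11 -0.059 and Atp5f1 -0.052 in the interaction. With the effective length term it was Cox4i1 0.016, Cox5b 0.054, Cox6b1 0.047, Cox7a2l 0.019, Atp5j 0.034 and Atp5mpl 0.055 between genotypes in TM, Atp5s 0.007 between cultures in WT, Atp5j 0.02 between cultures in TPdh-/-, Uqcr10 0.019 and Uqcrc1 0.018 in the interaction. With limma-trend on CPM it was Uqcr11 -0.001 in the interaction. Without libraries 5 and 12 it was Atp5b -0.025 between genotypes in TE, Uqcrh -0.041, Cox5a -0.081, Atp5g1 -0.052 and Atp5h -0.029 between genotypes in TM, Uqcrh 0.108 and Atp5s 0.006 between cultures in WT. With the effective length term without library 12 it was Cox5a -0.043, Cox7a2l 0.004 and Atp5g1 -0.029 between genotypes in TM, Uqcrh 0.084 between cultures in WT, Atp5j 0.022 between cultures in TPdh-/-, Atp5d 0.058 in the interaction. Without a filter on low counts it was Atp5b -0.001 between genotypes in TE. With single libraries left out, the ranges that crossed 0 between genotypes in TE were Cyc1 -0.065 to 0.049 and Atp5b -0.025 to 0.056. Those between genotypes in TM were Uqcrfs1 -0.123 to 0.003, Uqcrh -0.038 to 0.143, Cox4i1 -0.101 to 0.035, Cox5a -0.078 to 0.097, Cox6b1 -0.149 to 0.035, Cox7a2l -0.029 to 0.044, Cox8a -0.169 to 0.024, Atp5g1 -0.049 to 0.107, Atp5h -0.026 to 0.13, Atp5j -0.169 to 0.018 and Atp5mpl -0.188 to 0.063. Those between cultures in WT were Uqcrh -0.079 to 0.103 and Atp5s -0.104 to 0.001. Those in the interaction were Cyc1 -0.109 to 0.005, Uqcr10 -0.199 to 0.105, Uqcr11 -0.116 to 0.112, Atp5d -0.101 to 0.035 and Atp5f1 -0.016 to 0.071. Among all of these the difference of Atp5j between cultures in TPdh-/- was the 1 called in the fit reported. The causes were not tested. Depth limits Cox7a1, with 6 to 22 counts in TM, and Cox6b2, with 12 to 199 counts.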
